A study of Mus musculus with 24 samples.

Results

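The integrin and laminin genes are 2 families whose proteins meet at the cell surface. They were read here in cultured alveolar type II cells taken from mice, the surfactant-making epithelial cells of the lung. Members were all non-control probes whose gene name on the array is an integrin alpha or beta subunit or a laminin alpha, beta or gamma chain, leaving out the names of the integrin beta 1 and beta 3 binding proteins. Each gene was read on 1 probe, the brightest over the 24 arrays. This gave 39 genes out of 24096 gene names on the array, 28 with integrin names and 11 with laminin names, on 56 probes in all.

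Laminins are trimers of 1 alpha, 1 beta and 1 gamma chain and, with collagen IV, nidogen and perlecan, build the basement membrane on which alveolar epithelium sits. Integrins are pairs of 1 alpha and 1 beta subunit that hold cells to laminin, collagen, fibronectin and other ligands and signal from there. Epithelial cells are known for the alpha3 beta1, alpha6 beta4 and alphav beta6 integrins and for the laminin chains Lama3 and Lamb3, mesenchymal cells for Itga8, Itga11, Lama2 and Lama4, and leukocytes for the beta2 integrins.

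The cells had been isolated and grown at an air-liquid interface for 3 days. In 1 experiment they received vehicle (DMEM) or the fast hydrogen sulfide donor NaHS at 100 µM for 6 h or 24 h, giving the groups vehicle 6 h, NaHS 6 h, vehicle 24 h and NaHS 24 h. In the other they were kept for 24 h in 21% or 85% O2, and both groups carried the slow donor GYY4137 at 100 µM, so that experiment has no donor-free group here. Each of the 6 groups had 4 arrays. No genotype, strain or age is named in the labels used here, and they do not say whether the 4 samples of a group came from separate animals or cultures. The p-values then measure the spread between these samples, which may be technical.

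Levels are log2 processed signal minus the 75th percentile of log2 signal on the same array, so 0 is that percentile. The arrays had 54.8% to 77.5% of probes above background. In the NaHS experiment the odd-numbered replicates lay on 1 slide and the even-numbered on another, with 2 arrays of each group on each. The slides differed: 16750 of 33264 genes were called between them, 9 of 37 tested members among them, and values with slide as a block are given where they change a call of a member or, for the mean over vehicle and NaHS, of a gene in the lists described. The 21% O2 arrays filled 1 slide and the 85% O2 arrays another, so slide and oxygen cannot be told apart. Markers of the labelled type and of others were present among the 13 marker lists examined. Of 15 alveolar type II markers 12 to 15 were above background on each array, and so were all 10 smooth muscle and pericyte markers, all 6 mesothelial and 10 to 12 of 12 fibroblast markers. In such bulk samples, fewer cells of a type and less RNA per cell cannot be told apart.

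Of the 39 members, 37 passed the filter in each experiment (above background on 4 or more of its arrays). Itgad and Itgae, leukocyte alpha subunits, did not, and were not tested. Itgad was above background on 1 of 16 arrays of the NaHS experiment and on 0 of 8 of the GYY4137 experiment, Itgae on 0 of 16 and 2 of 8. Group means lay above the 75th percentile in all 6 groups for 22 members and below it in all 6 for 15, and Itga2 and Lama1 lay on both sides. Signal exceeded background throughout for 31 members in the NaHS experiment (16 arrays) and for 34 in the other (8 arrays). The dimmest tested ones were Itgb7, Itgb8 and Itgb2l, each above background on 9 of 16.

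The promoters below are shown because these members rose and fell together from array to array, as described further on: Lamb3, Itgb6 and Itga3 in 1 set, and Itga5 and Itgb1 in another. Each run is the 250 bases before the first start site that RefSeq lists for the gene (GRCm38.p6), 5′ to 3′ on the gene's strand. They are chr1:193301744-193301993 on the plus strand for Lamb3, chr2:60722604-60722853 on the minus strand for Itgb6, chr11:95076715-95076964 on the minus strand for Itga3, chr15:103366792-103367041 on the minus strand for Itga5 and chr8:128685404-128685653 on the plus strand for Itgb1. Capitals mark any match, on either strand, to a GC box (GGGCGG), an E2 box (CACCTG), a TEAD motif (CATTCC) or an AP-1 motif (TGANTCA).
Lamb3: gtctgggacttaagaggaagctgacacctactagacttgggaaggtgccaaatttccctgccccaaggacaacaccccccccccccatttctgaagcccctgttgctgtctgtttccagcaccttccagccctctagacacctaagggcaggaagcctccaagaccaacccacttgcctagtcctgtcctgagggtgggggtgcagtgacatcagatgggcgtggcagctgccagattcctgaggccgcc
Itgb6: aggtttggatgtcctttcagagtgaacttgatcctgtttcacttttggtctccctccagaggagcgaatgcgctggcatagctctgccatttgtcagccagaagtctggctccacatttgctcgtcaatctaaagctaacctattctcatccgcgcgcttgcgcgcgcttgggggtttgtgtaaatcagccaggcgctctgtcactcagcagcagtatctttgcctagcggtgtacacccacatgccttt
Itga3: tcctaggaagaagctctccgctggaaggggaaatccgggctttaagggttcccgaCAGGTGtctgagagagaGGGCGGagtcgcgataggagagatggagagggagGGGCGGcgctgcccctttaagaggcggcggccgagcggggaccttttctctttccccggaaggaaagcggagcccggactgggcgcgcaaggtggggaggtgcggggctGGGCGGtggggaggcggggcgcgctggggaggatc
Itga5: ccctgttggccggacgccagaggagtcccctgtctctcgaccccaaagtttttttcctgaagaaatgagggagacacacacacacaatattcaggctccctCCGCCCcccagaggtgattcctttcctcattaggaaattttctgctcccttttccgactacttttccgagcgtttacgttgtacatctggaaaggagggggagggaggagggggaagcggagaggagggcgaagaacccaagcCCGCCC
Itgb1: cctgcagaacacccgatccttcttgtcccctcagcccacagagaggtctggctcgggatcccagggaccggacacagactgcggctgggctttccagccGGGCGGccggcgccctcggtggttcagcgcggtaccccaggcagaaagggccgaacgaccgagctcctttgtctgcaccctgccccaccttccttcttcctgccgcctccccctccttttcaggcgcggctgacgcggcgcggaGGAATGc
The Lamb3 and Itgb6 windows shown held none of the 4 motifs, the Itga3 window 3 GC boxes and 1 E2 box, the Itga5 window 2 GC boxes, and the Itgb1 window 1 GC box and 1 TEAD motif. For Lamb3, Itgb6 and Itga3 RefSeq lists 2 start sites each. The window of the other Lamb3 start (chr1:193301993-193302242) held 1 E2 box and 1 TEAD motif, that of the other Itgb6 start (chr2:60673694-60673943) 1 E2 box, and that of the other Itga3 start (chr11:95069199-95069448) 1 GC box. In the windows shown, bases G and C made up 58.8% of the Lamb3 window, 52.0% of Itgb6, 67.6% of Itga3, 55.6% of Itga5 and 68.0% of Itgb1. RefSeq promoters were matched for 25 of the 39 members, with 28 start sites. Among these 28 windows, 10 held a GC box, 8 an E2 box, 3 a TEAD motif and 1 an AP-1 motif. Of all 32851 listed promoter windows of the same length, 32.7% held a GC box, 17.2% an E2 box, 12.6% a TEAD motif and 6.75% an AP-1 motif.

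Time in culture gave the calls of the NaHS experiment. Between 6 h and 24 h, taken as the mean of the vehicle and NaHS differences, 2 of 37 members rose and 0 fell past an adjusted p of 0.05 (limma, Benjamini-Hochberg over all 33264 genes), where 3.6% of all genes were called, 2.24% as higher. They were Itga11, a collagen-binding alpha subunit of mesenchymal cells, and Itga7, a laminin-binding alpha subunit best known from muscle. At the looser mark 15 were higher and 4 lower at an unadjusted p under 0.05, 19 of 37, where 15.3% of all genes passed that mark, 9.15% higher and 6.17% lower. Their median difference was 0.16, against -0.01 over all genes. On each slide the 6 h arrays lay in 1 row and the 24 h arrays in the other, so array row and time cannot be told apart. Vehicle arrays lay in columns 1 and 2 and NaHS arrays in columns 3 and 4, so array column and NaHS cannot be told apart either.

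Itga11 at 6 h stood at 1.04, 0.51, 0.84 and 1.85 in vehicle and 1.35, 1.31, 0.77 and 1.33 with NaHS (replicates 1 to 4 in order, here and below). Itga11 at 24 h stood at 1.75, 2.99, 2.31 and 1.65 in vehicle and 3.70, 2.28, 2.31 and 2.78 with NaHS. Itga11 with GYY4137 stood at 1.69, 1.31, 1.0 and 1.54 in 21% O2 and 1.75, 1.17, -0.04 and 0.16 in 85% O2. The 6 h values lay between 0.51 and 1.85 and the 24 h values between 1.65 and 3.70, and with NaHS the 2 times did not overlap. The rise was 1.34 ± 0.27 (SE, adjusted p = 0.0157, limma, n = 8 against 8), or 1.11 ± 0.38 in vehicle and 1.58 ± 0.38 with NaHS. It was 1.52 on slide 1 alone and 1.17 on slide 2 alone, and no omission of 1 array ended the call. It ended under median centring (1.37, adjusted p = 0.51) and within either slide alone (adjusted p = 0.16 and 0.33). The probe lies at chr9:62631667-62631726 (mm9).

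Itga7 at 6 h stood at 2.95, 3.07, 2.82 and 2.82 in vehicle and 3.20, 3.25, 2.84 and 3.02 with NaHS. Itga7 at 24 h stood at 3.66, 3.71, 3.35 and 3.57 in vehicle and 3.39, 3.13, 3.1 and 3.54 with NaHS. Itga7 with GYY4137 stood at 2.91, 3.24, 4.53 and 3.41 in 21% O2 and 2.99, 3.57, 3.43 and 2.96 in 85% O2. In vehicle every 24 h array stood above every 6 h array, while the 2 times overlapped with NaHS, and 1 array in 21% O2, replicate 3, stood far above all others. Itga7 rose by 0.66 ± 0.13 in vehicle, the 1 member of 37 called there (adjusted p = 0.0439, limma), where 0.616% of all genes were called. At an unadjusted p under 0.05 there were 9 of 37 members in vehicle, and 10.8% of all genes. The mean over vehicle and NaHS was 0.43 ± 0.09 (adjusted p = 0.0225, limma), and the difference with NaHS 0.21 ± 0.13. The vehicle call was narrow: 12 of the 16 omissions of 1 array ended it, with an adjusted p of up to 0.137. It held only without vehicle 6 h replicate 2, NaHS 6 h replicate 3, NaHS 24 h replicate 3 or NaHS 24 h replicate 4. The call on the mean ended without vehicle 24 h replicate 1 (adjusted p = 0.0528) or NaHS 24 h replicate 1 (0.0541). Under quantile normalization it was 0.0805 on the mean and 0.0984 in vehicle, and under median centring 1.0 for both. The probe lies at chr10:128395274-128395333 (mm9).

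Itga1 at 6 h stood at -2.37, -2.93, -2.77 and -2.57 in vehicle and -2.65, -2.49, -2.75 and -2.86 with NaHS. Itga1 at 24 h stood at -2.50, -1.72, -2.10 and -2.26 in vehicle and -2.01, -2.33, -2.28 and -2.50 with NaHS. Itga1 with GYY4137 stood at -0.71, -0.90, -0.62 and -1.22 in 21% O2 and -1.32, -1.80, -2.22 and -2.20 in 85% O2. Itga1 is a collagen IV receptor subunit. Its levels at 6 h and 24 h overlapped with NaHS and in vehicle, where 24 h replicate 2 stood highest. The mean difference with time was 0.46 ± 0.12 (adjusted p = 0.0567, limma), and 0.0407 with slide as a block, under which 3 of 37 members and 7.12% of all genes were called. Under normexp background correction the difference was 0.19.

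**Figure D1:**
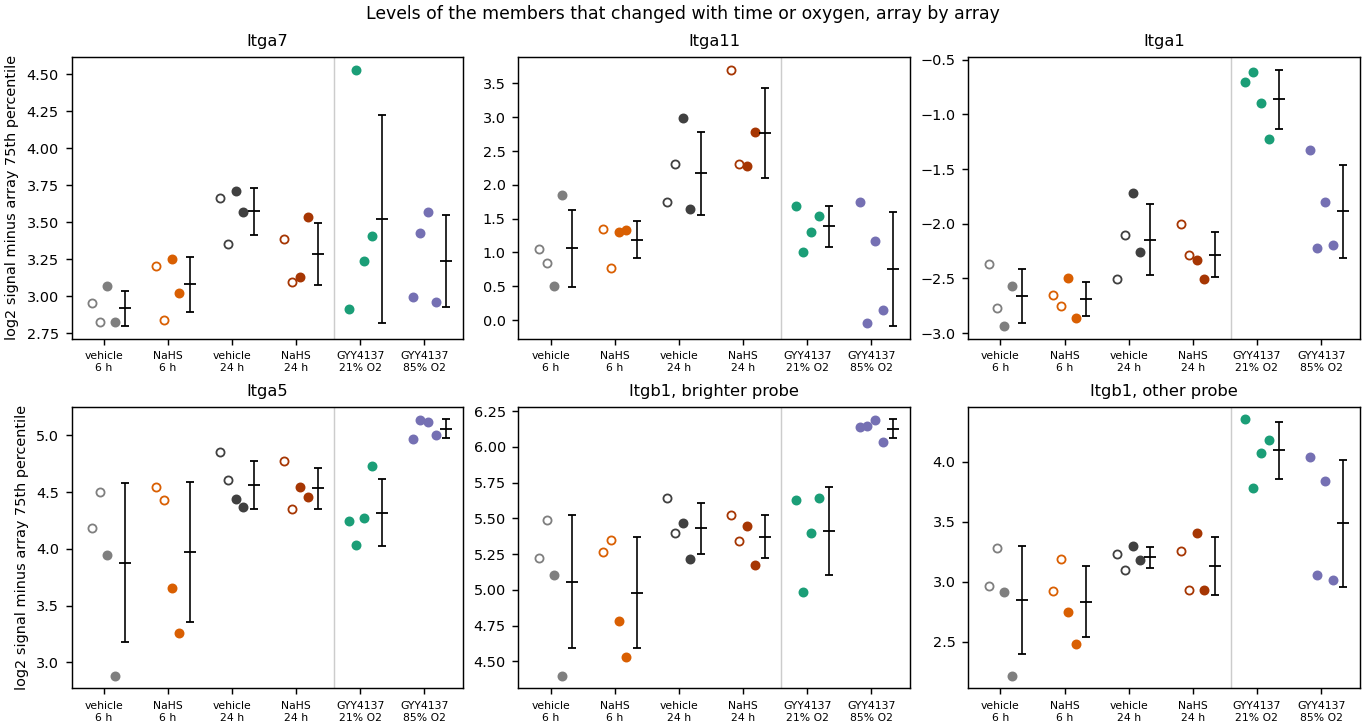
Level of Itga7, Itga11, Itga1, Itga5 and both Itgb1 probes on each of the 24 arrays (log2 signal minus the array's 75th percentile), by group; points are arrays, open on the first slide of the NaHS experiment and filled elsewhere, and bars are the mean ± SD of 4. Itga11 is higher at 24 h than at 6 h, and the 2 Itgb1 probes move apart between 21% and 85% O2.

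With the replicate number as a block 6 members were called over time, where 2624 of 33264 genes were: Itga11 and Itga7, and also Lama1 (1.5, adjusted p = 0.0183, limma), Itga5 (0.62, 0.0472), Itgb1 (0.38, 0.0475) and Itgb2 (0.66, 0.0464). All 6 rose. Lama1, a laminin alpha chain of early embryos and some epithelia, spread widely, from -1.76 to 2.35 over the 16 arrays.

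Itgb2 at 6 h stood at -1.70, -1.69, -1.85 and -1.54 in vehicle and -2.12, -1.39, -1.5 and -1.12 with NaHS. Itgb2 at 24 h stood at -0.90, -1.07, -0.24 and -1.26 in vehicle and -1.37, -1.29, -0.30 and -1.17 with NaHS. Itgb2 with GYY4137 stood at -1.79, -1.5, -1.63 and -1.26 in 21% O2 and -0.41, -1.56, -0.10 and -0.04 in 85% O2. Itgb2 is the beta chain shared by the leukocyte integrins. In vehicle its 24 h values were all above its 6 h values, a difference of 0.83 ± 0.28 (adjusted p = 0.22, limma). Itgam, its macrophage partner, likewise did not overlap in vehicle (0.60 ± 0.22, adjusted p = 0.27, limma). From array to array within groups, though, Itgam and Itgb2 ran opposite ways (r = -0.53, described further on). Vehicle 24 h replicate 3 was the highest of its group for Itgb2 and the lowest for Itgam. Itgax, the dendritic cell partner, ranged from -5.18 to -0.42 over the 16 arrays. Of 15 macrophage markers 13 were tested and 2 rose, Cd53 by 2.0 and C1qa by 1.55, where 2.24% of all genes were called as higher. The summed level of the 15 ranged from 3.20 to 3.93 at 6 h and from 3.26 to 4.88 at 24 h. The part of such cells in these differences was not tested.

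Lamc1 at 6 h stood at 4.73, 4.35, 4.25 and 4.21 in vehicle and 4.68, 4.84, 4.43 and 4.56 with NaHS. Lamc1 at 24 h stood at 4.93, 4.98, 4.76 and 5.01 in vehicle and 4.79, 4.35, 4.58 and 4.81 with NaHS. Lamc1 with GYY4137 stood at 4.36, 4.63, 5.25 and 4.42 in 21% O2 and 4.55, 4.36, 4.69 and 3.95 in 85% O2. Lamc1, the gamma chain of most laminins, did not overlap between the times in vehicle (0.53 ± 0.14, adjusted p = 0.11, limma) and showed 0.01 ± 0.14 with NaHS. 4 members did not overlap in vehicle, Itga7, Itgam, Itgb2 and Lamc1, all higher at 24 h, where 6.77% of all genes did so, 3.89% as higher. With NaHS 3 did not, Itga10, Itga11 and Itga2b, where 5.77% of all genes did so, and 0 members were called, where 0.0271% of genes were. There 5 of 37 members had an unadjusted p under 0.05 in limma, and 7.3% of all genes. The smallest adjusted p was that of Itga2b, the platelet alpha subunit, at 0.93 ± 0.18 (adjusted p = 0.12), which passed the threshold only when the fit was limited to probes above background on all 16 arrays (0.0490). The normexp difference was 0.11.

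Of 24 tested basement membrane partners of laminins 5 rose and 0 fell over time: Hspg2, perlecan, by 0.66 ± 0.11, Col4a1 by 0.66 ± 0.11, Nid1, which links laminin to collagen IV, by 0.74 ± 0.13, Col4a2 by 0.56 ± 0.10, and Fbln2 by 0.72 ± 0.17. The median of that list was 0.22. Over the same time 3.6% of all genes were called, 2.24% as higher, and 7.12% were called with slide as a block. With slide as a block Col4a5, another collagen IV chain, also passed (0.58, adjusted p = 0.0434 against 0.10 without it, limma), making 6. Of 31 genes listed as integrin-linked focal adhesion proteins 3 rose, Tns1 (0.56 ± 0.10), Parvg (1.43 ± 0.29) and Lims2 (0.46 ± 0.11), and 0 fell. With slide as a block 6 rose, with Ptk2b (0.38), Ilk (0.24) and Rsu1 (0.34) beside them. Of 12 genes of the latent TGF-beta complex, which alphav integrins activate, 3 rose, Ltbp3 (0.45 ± 0.09), Ltbp4 (1.07 ± 0.24) and Ltbp2 (0.53 ± 0.14). Of 14 tested hemidesmosome and other laminin receptor genes and of 24 non-laminin integrin ligands 0 were called in limma. At an unadjusted p under 0.05 there were 2 and 7, all higher, where 15.3% of all genes passed, 9.15% higher. With slide as a block 1 of each list passed, Dst (0.31, adjusted p = 0.0219 against 0.22, limma), which ties hemidesmosomes to keratin, and the thrombospondin Thbs2 (0.65, 0.0398 against 0.15).

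Over the same time 2.24% of all genes rose and 1.36% fell past the threshold, and 7.12% passed it with slide as a block. Of 10 smooth muscle and pericyte markers 3 rose, Notch3 by 1.01, Des by 1.02 and Cnn1 by 0.92. Their list's summed level ranged from 9.38 to 10.24 at 6 h and from 9.79 to 10.43 at 24 h. Of 11 tested fibroblast markers Thy1 rose by 1.04 and Pdgfra fell by 0.98, with a summed level of 8.38 to 9.68 at 6 h and 9.13 to 9.98 at 24 h. Of 14 tested alveolar type II markers Sftpa1 fell by 2.75 and Etv5 rose by 0.49. With slide as a block 3 fibroblast and 3 alveolar type II markers fell, the added ones being Tcf21 (-0.75), Inmt (-0.58), Sftpc (-2.15) and Sftpb (-1.46). Of 6 club cell markers 3 fell, Scgb3a1 by 2.98, Bpifa1 by 3.11 and Scgb1a1 by 2.48, and the summed level ranged from 4.64 to 7.61 at 6 h and from 1.31 to 5.0 at 24 h. Of 11 endothelial markers Esam rose by 0.60 and Ramp2 fell by 0.83, with a summed level of 3.91 to 4.46 at 6 h and 4.12 to 4.48 at 24 h. The part of these cell types in the differences of Itga11, Itga7 and Itga1 was not tested.

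Oxygen gave 3 calls. In 85% against 21% O2, both with GYY4137, Itga5 and Itgb1, the subunits of the fibronectin receptor, rose, and Itga1 fell, 3 of 37 members (limma, over 34652 genes), where 15.8% of all genes were called, 10.2% higher and 5.59% lower. That is a smaller share of the members than of all genes. At an unadjusted p under 0.05 there were 7 members higher and 3 lower, 10 of 37, where 34.4% of all genes passed, 21.3% higher and 13% lower. Scaling bears on the direction here: 64.7% of called genes were higher, against 55.3% under normexp, 51.3% under quantile normalization and 36.8% under median centring. The median of all genes was 0.07 here and -0.08 under median centring, a shift of over 0.1.

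Itga5 at 6 h stood at 4.18, 3.95, 4.5 and 2.88 in vehicle and 4.55, 3.66, 4.43 and 3.26 with NaHS. Itga5 at 24 h stood at 4.85, 4.44, 4.60 and 4.37 in vehicle and 4.78, 4.54, 4.35 and 4.46 with NaHS. Itga5 with GYY4137 stood at 4.24, 4.27, 4.03 and 4.73 in 21% O2 and 4.97, 5.12, 5.14 and 5.0 in 85% O2. Itga5 is the alpha subunit of that receptor. In 85% O2 all 4 arrays stood above all 4 in 21% O2, and they lay close together. The difference was 0.74 ± 0.16 (adjusted p = 0.0204, limma), 0.59 under median centring. At 6 h the replicate 4 arrays were the lowest in vehicle and with NaHS. The probe lies at chr15:103175022-103175081 (mm9).

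Itgb1 at 6 h stood at 5.22, 5.11, 5.49 and 4.40 in vehicle and 5.26, 4.78, 5.35 and 4.53 with NaHS. Itgb1 at 24 h stood at 5.64, 5.46, 5.40 and 5.21 in vehicle and 5.52, 5.44, 5.34 and 5.17 with NaHS. Itgb1 with GYY4137 stood at 5.63, 5.40, 4.98 and 5.64 in 21% O2 and 6.14, 6.19, 6.15 and 6.04 in 85% O2. On this probe the 85% O2 arrays again lay together and above those in 21% O2, by 0.71 ± 0.16 (adjusted p = 0.0238, limma), and by 0.57 under median centring. The gene's other probe did not rise. It read 4.35, 4.07, 3.79 and 4.18 in 21% O2 and 4.04, 3.84, 3.05 and 3.02 in 85% O2, a difference of -0.61 ± 0.26 (adjusted p = 0.14), and the mean of the 2 probes gave 0.05 (adjusted p = 0.87). Over time the difference was 0.38 ± 0.16 on the first probe and 0.33 ± 0.15 on the other. The direction of Itgb1 with oxygen thus depends on the probe. The brighter probe spans chr8:131250081-131255976 (mm9).

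Itga1 was the lower one, with group means of -0.86 ± 0.27 and -1.89 ± 0.42 (SD, n = 4 each) and no overlap. It fell by 1.02 on the log2 scale (SE 0.23, adjusted p = 0.0237, limma), and its other probe gave -0.98 ± 0.30 (adjusted p = 0.0574). The brighter probe spans chr13:115756765-115758419 (mm9). None of the 3 calls held without 21% O2 replicate 2, 85% O2 replicate 3 or 85% O2 replicate 4, when 0 members were called in limma and 8, 10 and 7 in turn had an unadjusted p under 0.05. Itga1 was also lost without 21% O2 replicate 3 (adjusted p = 0.0583), and Itgb1 without 85% O2 replicate 1 (0.0542). Without 21% O2 replicate 1, 5 were called, Itga4 and Itgal beside these 3, and without 21% O2 replicate 3, 5 were called, Itga5, Itgb1, Itga6, Itga10 and Itgb2l. Without 85% O2 replicate 2, the lowest array of its group for Itgb2, Itgb2 was called beside the 3 (1.36 ± 0.17, adjusted p = 0.0057, limma). The share of all genes called in each of these omissions is not given here, so a loss among members alone cannot be told from one over all genes. With the replicate number as a block Itgb4 joined the 3 calls (0.71, adjusted p = 0.0486, limma), and under median centring Itga10 did (-1.05, 0.0496). Under normexp Itgb4 (0.72, 0.0494) and Itgb2 (0.90, 0.0459) were called beside the 3.

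Groups did not overlap for 5 members, Itga1, Itga10, Itga5, Itgb1 and Lamb1, where 23.1% of all genes did so. The list counts that follow stand against the 15.8% of all genes called with oxygen. Of 31 genes on the focal adhesion list Bcar1 rose (0.50 ± 0.14) and Lims1 fell (-0.67 ± 0.11). Itgb3bp, on that list but named for binding integrin beta 3, fell as well (-0.70 ± 0.19). Of 24 basement membrane partners Frem2 rose (0.56 ± 0.13). For both lists that is a smaller share than over all genes. Of 10 smooth muscle markers Notch3 rose by 1.36 and Des fell by 1.29, and of 11 fibroblast markers Thy1 fell by 1.05. Of 13 tested type II markers Lamp3 fell by 1.04, and of 5 ciliated cell markers Foxj1 rose by 1.46 and Tppp3 by 0.77. Of 9 tested endothelial markers Tek rose by 1.17, and of 8 neutrophil markers Mpo fell by 0.63. Summed smooth muscle levels ranged from 9.88 to 10.25 in 21% O2 and from 9.53 to 10.01 in 85% O2, and summed fibroblast levels from 9.44 to 9.61 and from 8.74 to 9.46. Their part in the 3 calls was not tested. Where probes of a member disagreed with oxygen, the direction is uncertain: the 3 Itgal probes gave 0.79, -0.01 and -0.59, the 3 Itgam probes -0.82, 0.07 and 0.02, and the 2 Itgb3 probes 0.22 and -0.47.

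**Figure D2:**
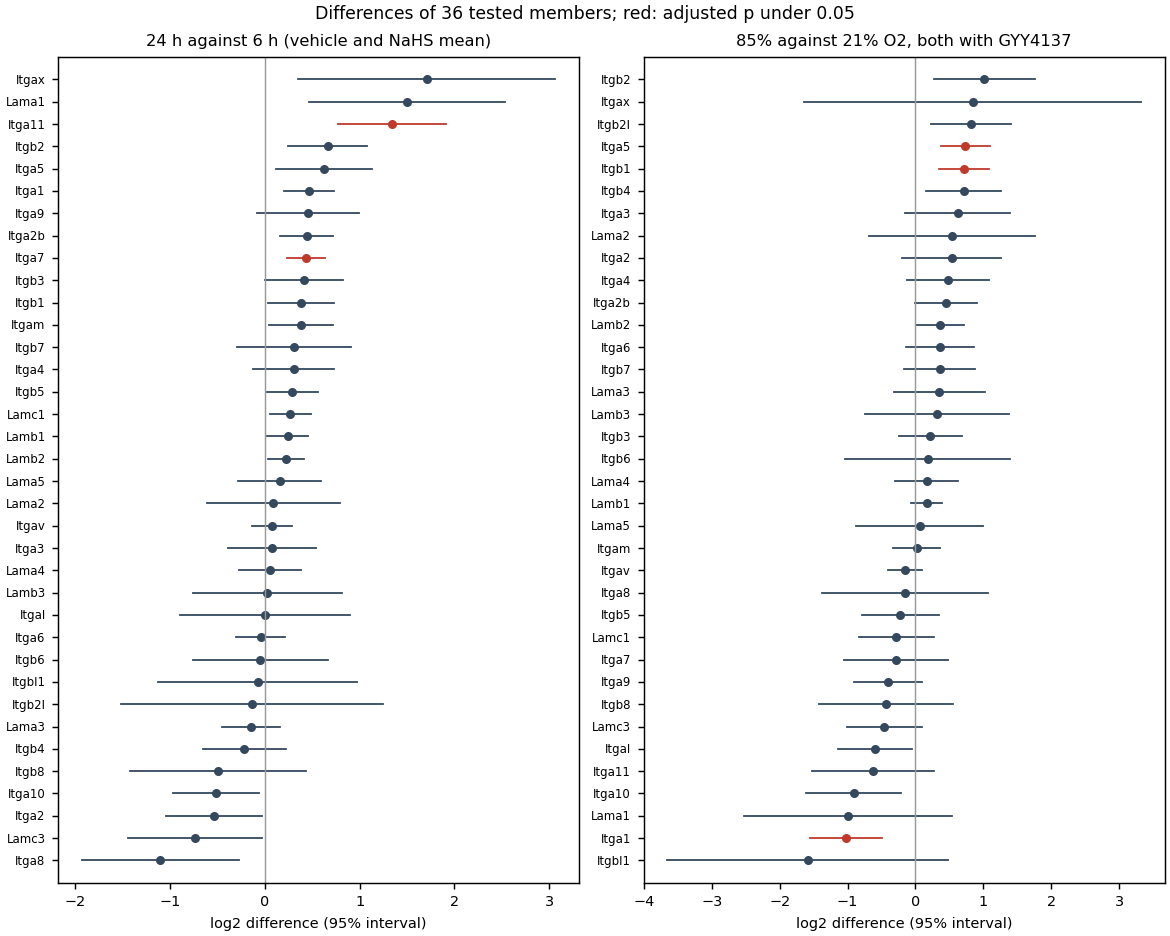
Log2 difference of each of 36 tested members with its 95% interval, for 24 h against 6 h (mean of vehicle and NaHS, 16 arrays) on the left and 85% against 21% O2 with GYY4137 (8 arrays) on the right, each sorted by size; red marks an adjusted p under 0.05. Itga11 and Itga7 are red on the left, and Itga5, Itgb1 and Itga1 on the right.

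NaHS gave no call among the members. At 6 h, at 24 h, in the mean of both times and in the change of the effect between them, 0 of 37 members passed an adjusted p of 0.05 in limma, where 0% of all genes did. At an unadjusted p under 0.05 there were 1, 2, 0 and 3 members in turn, and 0.589%, 2.21%, 1.54% and 1.07% of all genes. No member had groups that did not overlap at either time, where 0.631% of all genes at 6 h and 1.68% at 24 h had. With 4 arrays a group, differences were bounded loosely for some members and more closely for others. For Lamb3 at 24 h the 95% interval ran from -0.43 to 1.80. For Itgav, the alpha subunit of most RGD receptors, it ran from -0.21 to 0.39.

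Itga2b at 6 h stood at -4.16, -4.43, -4.36 and -4.29 in vehicle and -4.79, -4.86, -4.41 and -5.04 with NaHS. Itga2b at 24 h stood at -4.38, -4.23, -4.61 and -4.20 in vehicle and -3.47, -3.85, -4.35 and -3.71 with NaHS. Itga2b with GYY4137 stood at -4.01, -3.84, -4.28 and -4.47 in 21% O2 and -3.68, -3.31, -4.06 and -3.72 in 85% O2. Itga2b pairs with Itgb3 on platelets. It lay low on all arrays, lower with NaHS than in vehicle at 6 h by 0.46 (95% interval -0.85 to -0.07) and higher at 24 h by 0.51 (0.12 to 0.90), with overlap at both times. The summed level of 9 platelet and megakaryocyte markers, 4 to 6 of them above background, ranged from 0.77 to 2.73 over these 16 arrays, and their part in it was not tested. The change between the times was 0.97 ± 0.26 (unadjusted p = 0.0021, adjusted p = 1.0, limma). Under normexp the 24 h difference turned to -0.061 and the change to 0.16.

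Lamc1 differed by 0.24 ± 0.14 at 6 h and by -0.29 ± 0.14 at 24 h, a change of -0.53 ± 0.20. Itga7 differed by 0.16 ± 0.13 and -0.29 ± 0.13, a change of -0.45 ± 0.19. Neither passed the threshold, and for both the vehicle arrays that lie high at 24 h are the ones described above for time.

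Itga4 at 6 h stood at -5.03, -4.91, -4.72 and -5.34 in vehicle and -5.80, -5.02, -5.59 and -5.45 with NaHS. Itga4 at 24 h stood at -5.05, -5.03, -4.11 and -5.09 in vehicle and -5.65, -4.93, -4.41 and -5.13 with NaHS. Itga4 with GYY4137 stood at -3.74, -4.41, -4.55 and -5.02 in 21% O2 and -4.16, -4.14, -3.89 and -3.63 in 85% O2. Itga4, a leukocyte receptor for VCAM-1 and fibronectin, was above background on 11 of these 16 arrays, and its differences were -0.46 ± 0.28 at 6 h and -0.33 ± 0.20 in the mean of both times.

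Itga9 at 6 h stood at 0.83, 0.81, 1.02 and 1.88 in vehicle and 1.0, 1.21, 1.03 and 2.39 with NaHS. Itga9 at 24 h stood at 1.77, 1.34, 2.04 and 0.90 in vehicle and 2.03, 1.43, 2.32 and 2.0 with NaHS. Itga9 with GYY4137 stood at 1.58, 1.19, 1.89 and 2.0 in 21% O2 and 1.33, 0.93, 1.62 and 1.16 in 85% O2. Itga9, a tenascin receptor subunit, differed by 0.35 ± 0.25 in the mean of both times and Itga11 by 0.36 ± 0.27. 1 array, NaHS 6 h replicate 4, read highest for Itga9 and stood apart from its group.

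**Figure D3:**
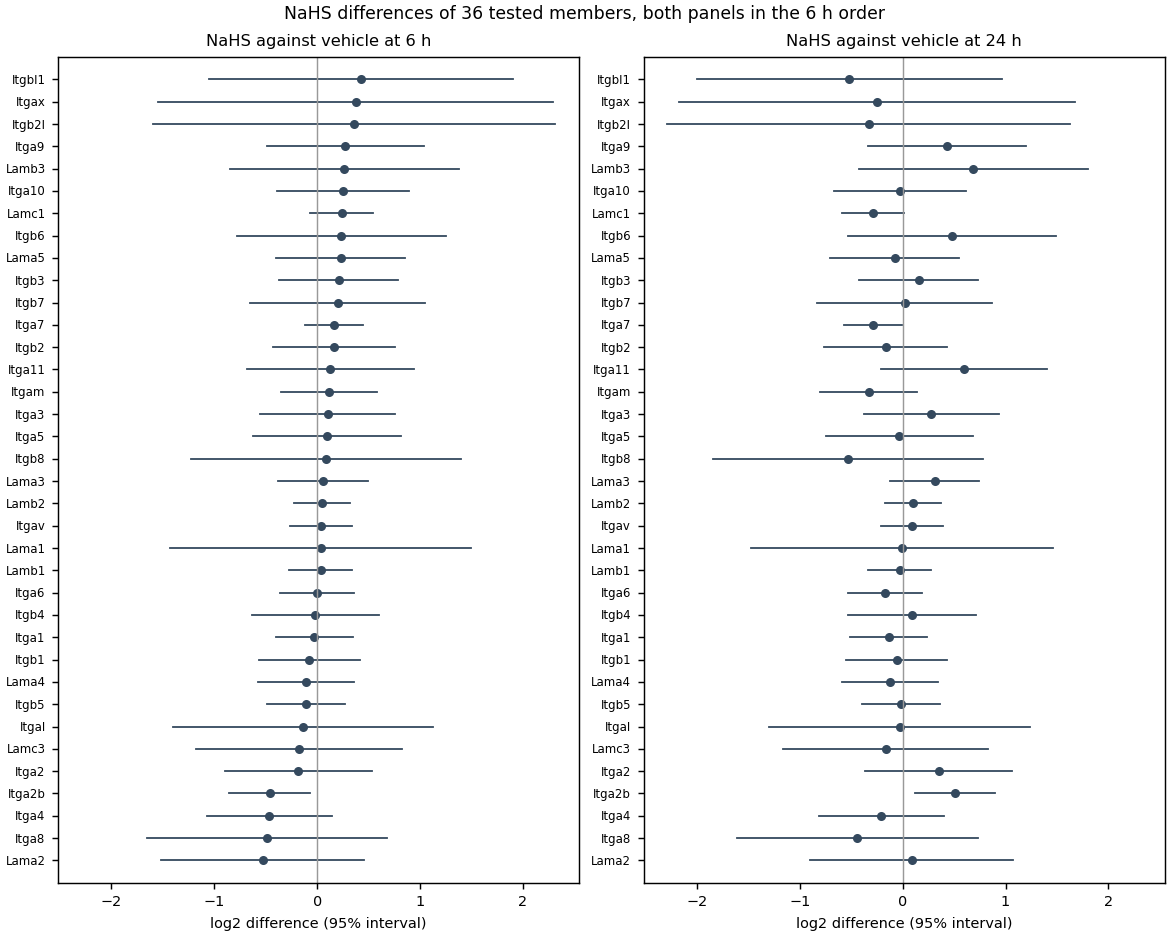
Log2 difference of NaHS against vehicle with its 95% interval for 36 tested members, at 6 h on the left and 24 h on the right (4 arrays against 4), both in the order of the 6 h differences. No member passed an adjusted p of 0.05, and most intervals include 0.

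Of the chains and subunits named above as epithelial and the main alveolar laminin chains, Itgb1 apart, none of the 9 that follow was called in any of the comparisons, with or without slide as a block. In one case, Lamb1 with oxygen, the groups did not overlap. Their spread between arrays of the same group was wide for Lamb3 and Itgb6.

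Lama3 at 6 h stood at 1.60, 1.22, 1.69 and 1.80 in vehicle and 1.68, 1.53, 1.75 and 1.58 with NaHS. Lama3 at 24 h stood at 1.60, 0.79, 1.71 and 1.13 in vehicle and 1.86, 1.35, 1.82 and 1.44 with NaHS. Lama3 with GYY4137 stood at 0.90, 0.48, 0.39 and 1.14 in 21% O2 and 0.56, 0.73, 1.25 and 1.78 in 85% O2. Lama3 had differences of 0.06 ± 0.20 for NaHS at 6 h, 0.31 ± 0.20 for NaHS at 24 h, -0.15 ± 0.14 for time and 0.35 ± 0.29 for oxygen.

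Lamb3 at 6 h stood at 3.79, 3.6, 4.18 and 4.81 in vehicle and 3.59, 4.22, 4.16 and 5.48 with NaHS. Lamb3 at 24 h stood at 4.64, 2.70, 4.83 and 3.48 in vehicle and 4.54, 3.71, 5.01 and 5.13 with NaHS. Lamb3 with GYY4137 stood at 3.18, 3.01, 4.07 and 4.44 in 21% O2 and 3.02, 3.6, 4.68 and 4.68 in 85% O2. For Lamb3 the difference with NaHS was 0.26 ± 0.52 at 6 h and 0.69 ± 0.52 at 24 h, that with time 0.03 ± 0.37 and that with oxygen 0.32 ± 0.46.

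Across both chains, Lama3 and Lamb3, vehicle 24 h replicate 2 was the lowest array of the NaHS experiment, and replicates 1 and 3 of that group were high.

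Itgb6 at 6 h stood at 3.48, 2.28, 2.97 and 4.11 in vehicle and 3.17, 3.36, 3.02 and 4.24 with NaHS. Itgb6 at 24 h stood at 3.48, 1.83, 3.86 and 3.0 in vehicle and 3.6, 2.82, 4.01 and 3.66 with NaHS. Itgb6 with GYY4137 stood at 2.47, 1.70, 3.36 and 3.58 in 21% O2 and 2.08, 2.32, 3.65 and 3.78 in 85% O2. Itgb6 pairs with Itgav to activate latent TGF-beta in epithelia. It too was lowest on vehicle 24 h replicate 2. Itgb6 differed by 0.24 ± 0.47 and 0.48 ± 0.47 with NaHS at 6 h and 24 h, by -0.05 ± 0.33 with time and by 0.18 ± 0.53 with oxygen.

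Itga3 at 6 h stood at 3.15, 2.22, 2.84 and 3.32 in vehicle and 3.0, 2.86, 2.85 and 3.23 with NaHS. Itga3 at 24 h stood at 3.22, 2.16, 3.43 and 2.67 in vehicle and 3.30, 2.50, 3.53 and 3.25 with NaHS. Itga3 with GYY4137 stood at 1.82, 1.54, 2.77 and 2.39 in 21% O2 and 2.15, 2.52, 2.99 and 3.35 in 85% O2. Itga3 is the laminin receptor alpha chain of lung epithelium. Itga3 had differences of 0.10 ± 0.30 for NaHS at 6 h, 0.28 ± 0.30 for NaHS at 24 h, 0.07 ± 0.22 for time and 0.62 ± 0.34 for oxygen.

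Itgb4 at 6 h stood at 3.12, 2.44, 3.06 and 3.58 in vehicle and 2.94, 2.97, 3.11 and 3.1 with NaHS. Itgb4 at 24 h stood at 3.1, 1.95, 3.34 and 2.72 in vehicle and 3.20, 2.50, 3.08 and 2.70 with NaHS. Itgb4 with GYY4137 stood at 1.80, 1.34, 1.29 and 2.04 in 21% O2 and 2.02, 2.06, 2.36 and 2.86 in 85% O2. Itgb4 anchors hemidesmosomes. In 21% O2 every array but replicate 4 stood below every 85% O2 array, and its call with the replicate block is given above. For Itgb4 the difference with NaHS was -0.02 ± 0.29 at 6 h and 0.09 ± 0.29 at 24 h, that with time -0.22 ± 0.20 and that with oxygen 0.71 ± 0.24.

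Itga6 at 6 h stood at 5.63, 5.38, 5.57 and 4.83 in vehicle and 5.43, 5.28, 5.49 and 5.19 with NaHS. Itga6 at 24 h stood at 5.59, 5.10, 5.43 and 5.44 in vehicle and 5.41, 5.07, 5.16 and 5.24 with NaHS. Itga6 with GYY4137 stood at 4.89, 4.69, 5.65 and 4.84 in 21% O2 and 5.19, 5.32, 5.64 and 5.37 in 85% O2. Itga6, its partner, was high and steady in most groups, with vehicle 6 h replicate 4 low and 21% O2 replicate 3 high. Itga6 differed by -0.00 ± 0.17 and -0.17 ± 0.17 with NaHS at 6 h and 24 h, by -0.04 ± 0.12 with time and by 0.36 ± 0.22 with oxygen. With the mean over all its probes the oxygen difference of Itga6 was 0.58 and passed the threshold (adjusted p = 0.0201, limma), and so did that without 21% O2 replicate 3 (0.57, 0.0498).

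Itgav at 6 h stood at 2.91, 2.97, 2.83 and 2.70 in vehicle and 2.98, 2.89, 2.95 and 2.73 with NaHS. Itgav at 24 h stood at 3.19, 2.58, 3.07 and 2.75 in vehicle and 3.18, 2.90, 3.1 and 2.78 with NaHS. Itgav with GYY4137 stood at 3.11, 3.0, 3.02 and 3.15 in 21% O2 and 2.84, 2.81, 2.99 and 3.05 in 85% O2. Itgav varied least of these, with all arrays between 2.58 and 3.19. Itgav had differences of 0.04 ± 0.14 for NaHS at 6 h, 0.09 ± 0.14 for NaHS at 24 h, 0.07 ± 0.10 for time and -0.15 ± 0.11 for oxygen.

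Lama5 at 6 h stood at 4.57, 3.93, 4.30 and 5.39 in vehicle and 4.47, 4.98, 4.54 and 5.12 with NaHS. Lama5 at 24 h stood at 5.13, 4.28, 5.04 and 4.98 in vehicle and 4.94, 4.38, 4.95 and 4.85 with NaHS. Lama5 with GYY4137 stood at 3.75, 4.11, 5.51 and 4.54 in 21% O2 and 3.97, 4.15, 5.03 and 5.01 in 85% O2. Lama5 is the main laminin alpha chain of alveolar basement membrane. Its highest array was 21% O2 replicate 3. For Lama5 the difference with NaHS was 0.23 ± 0.29 at 6 h and -0.08 ± 0.29 at 24 h, that with time 0.16 ± 0.20 and that with oxygen 0.06 ± 0.41.

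Lamb1 at 6 h stood at 6.61, 6.51, 6.48 and 6.01 in vehicle and 6.52, 6.51, 6.55 and 6.18 with NaHS. Lamb1 at 24 h stood at 6.73, 6.46, 6.67 and 6.86 in vehicle and 6.74, 6.76, 6.53 and 6.56 with NaHS. Lamb1 with GYY4137 stood at 6.51, 6.58, 6.37 and 6.48 in 21% O2 and 6.64, 6.71, 6.62 and 6.63 in 85% O2. Lamb1, the common beta chain, stayed between 6.01 and 6.86 on all 24 arrays, and each 85% O2 array stood above each 21% O2 array. Lamb1 differed by 0.03 ± 0.14 and -0.03 ± 0.14 with NaHS at 6 h and 24 h, by 0.24 ± 0.10 with time and by 0.17 ± 0.10 with oxygen.

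The other members are given by their group means (SD, n = 4), and none of them passed the threshold in the fit over all arrays of an experiment scaled to the 75th percentile, with or without slide as a block. Calls of Itga4, Itga10, Itgal and Itgb2l with oxygen under other scaling or without single arrays, and of Lama1 over time with the replicate block, are given above. Of the mesenchymal members, Itga8, a nephronectin receptor subunit, ran from -2.63 ± 0.88 in NaHS at 24 h to -0.52 ± 1.08 in 21% O2. Lama2, the laminin chain of muscle, ran from 0.84 ± 0.70 in NaHS at 6 h to 1.94 ± 0.47 in 85% O2. Lama4, a chain of vessel walls, was steadier, from 1.88 ± 0.30 in NaHS at 6 h to 2.33 ± 0.29 in 85% O2. Among the beta subunits of RGD receptors, Itgb3 ran from 4.70 ± 0.45 in vehicle at 6 h to 5.30 ± 0.24 in NaHS at 24 h. Itgb5 ran from 5.09 ± 0.25 in NaHS at 6 h to 5.52 ± 0.38 in 21% O2. Itgb8 lay near background, from -5.81 ± 0.74 in NaHS at 24 h to -4.5 ± 0.94 in 21% O2. Itgb3 and Itgb5 thus lay well above the 75th percentile in every group, and Itgb8 well below it.

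Among the collagen receptors, Itga2 ran from -0.20 ± 0.47 in 21% O2 to 0.62 ± 0.64 in vehicle at 6 h. Itga10, known from cartilage, ran from -2.50 ± 0.09 in 85% O2 to -1.33 ± 0.28 in NaHS at 6 h, and its 85% O2 arrays all stood below its 21% O2 arrays (-0.91 ± 0.31, adjusted p = 0.08, limma). Of the laminin chains, Lamb2 ran from 1.71 ± 0.29 in vehicle at 6 h to 2.28 ± 0.16 in 85% O2. Lamc3 ran from -3.22 ± 1.03 in NaHS at 24 h to -2.14 ± 0.35 in 21% O2. Lama1 spread widely within groups, with means from -0.16 ± 1.05 in vehicle at 6 h to 2.12 ± 0.98 in 21% O2. Of the remaining leukocyte members, Itgam lay above the percentile in every group, from 3.97 ± 0.24 in vehicle at 6 h to 4.68 ± 0.25 in 85% O2. The others and Itgbl1 lay below it in every group. Itgal ran from -2.83 ± 0.86 in NaHS at 6 h to -1.77 ± 0.49 in 21% O2. Itgb7 ran from -5.07 ± 0.25 in vehicle at 6 h to -3.40 ± 0.28 in 85% O2. Itgb2l ran from -5.42 ± 0.50 in 21% O2 to -4.60 ± 0.27 in 85% O2. Itgbl1 ran from -4.19 ± 0.70 in 85% O2 to -2.60 ± 2.01 in 21% O2, with the widest spread in 21% O2. Levels of the GYY4137 experiment and of the NaHS experiment come from different slides, and their difference was not tested.

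To describe how members vary together, each array's level was taken as a deviation from its group mean, which removes the group differences, and members were correlated over the 24 deviations. These points share arrays, slides and scaling, so the correlations are descriptions with no test. Of 20 pairs of chains or subunits known to assemble, 3 had r over 0.5: Lama3 with Lamb3 (r = 0.66, rho = 0.70), Itga5 with Itgb1 (0.93, 0.89) and Itgav with Itgb3 (0.73, 0.68). Another 8 had r below 0, the lowest being Itgav with Itgb8 (-0.54), Itgam with Itgb2 (-0.53) and Lama5 with Lamb1 (-0.44). Itga3 with Itgb1 stood at -0.29, and at -0.93 over the NaHS experiment with slide means removed. Itga6 with Itgb4 stood at 0.00 and Itgav with Itgb6 at 0.34. Over the 703 pairs of 38 members the median r was -0.02, 14 pairs had r over 0.8 and 5 had r under -0.8.

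Lamb3 moved with some of the members known from epithelium and with a few others. It had r = 0.91 with Itgb6, 0.85 with Itga3, 0.78 with Itga9 and 0.77 with the leukocyte subunit Itgax. The value was 0.76 with Lama5, 0.71 with Itgb4 and 0.66 with Lama3. With the other subunits named above as epithelial it was lower, 0.31 for Itgav, 0.18 for Itga6 and -0.36 for Itgb1. Lamb3 ran against Lama2 (-0.82), Itga8 (-0.80), Lama4 (-0.79), Itgb5 (-0.78) and Lama1 (-0.72). Of these, Lama2, Itga8 and Lama4 are best known from mesenchymal cells, Itgb5 is widely expressed, and Lama1 is a chain of early embryos and some epithelia. Itga11, also named above as mesenchymal, had r = -0.26 with Lamb3. For Lamb3 and Itgb6 the value was 0.88 over the 16 arrays of the NaHS experiment, 0.88 there with the slide means also removed, 0.97 over the 8 GYY4137 arrays, and 0.89 without the 2 arrays farthest from the median. For Lamb3 and Lama2 these values were -0.83, -0.84, -0.83 and -0.79.

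Cell type markers moved along the same line. Over the 24 deviations Lamb3 had r = 0.84 with the summed alveolar type II markers, 0.81 with mesothelial, 0.77 with macrophage, 0.62 with club cell and 0.59 with ciliated markers, and -0.63 with smooth muscle and -0.43 with fibroblast markers. The alveolar type II summed level ranged from 5.26 to 7.39 over the 24 arrays, with 12 to 15 of 15 markers above background, and the mesothelial from 6.87 to 8.75, with 6 of 6. The other lists followed less: alveolar type I 0.44, platelet and megakaryocyte 0.36, basal cell 0.35, neutrophil 0.21, lymphocyte -0.18 and endothelial -0.17. Alveolar type I stood at 0.66 over the NaHS experiment and -0.13 over the GYY4137 arrays, and basal cell at 0.08 and 0.91. The part of these cell types in the spread of Lamb3 was not tested.

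Itga5 and Itgb1, on its brighter probe, formed another pair. The other Itgb1 probe, which did not rise with oxygen, was not read in these correlations. The r of Itga5 with Itgb1 was 0.97 in the NaHS experiment and 0.94 there with slide means removed. It was 0.74 over the GYY4137 arrays and 0.87 without the 2 farthest arrays. Itga5 had r = 0.76 with summed smooth muscle markers and -0.61 with alveolar type II markers, the latter at -0.25 without the 2 farthest arrays. These were 0.87 and -0.74 over the NaHS experiment, and 0.17 and 0.41 over the GYY4137 arrays, where Itga5 was called. Itga7 had r = 0.76 with Lamc1 and 0.75 with Itgbl1, a secreted integrin-like protein that the naming rule also matched. Both rest in part on 21% O2 replicate 3, and were 0.59 and 0.48 without the 2 farthest arrays. Over the NaHS experiment, which does not hold that array, they were 0.73 and 0.49, and with slide means removed 0.78 and 0.41.

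**Figure D4:**
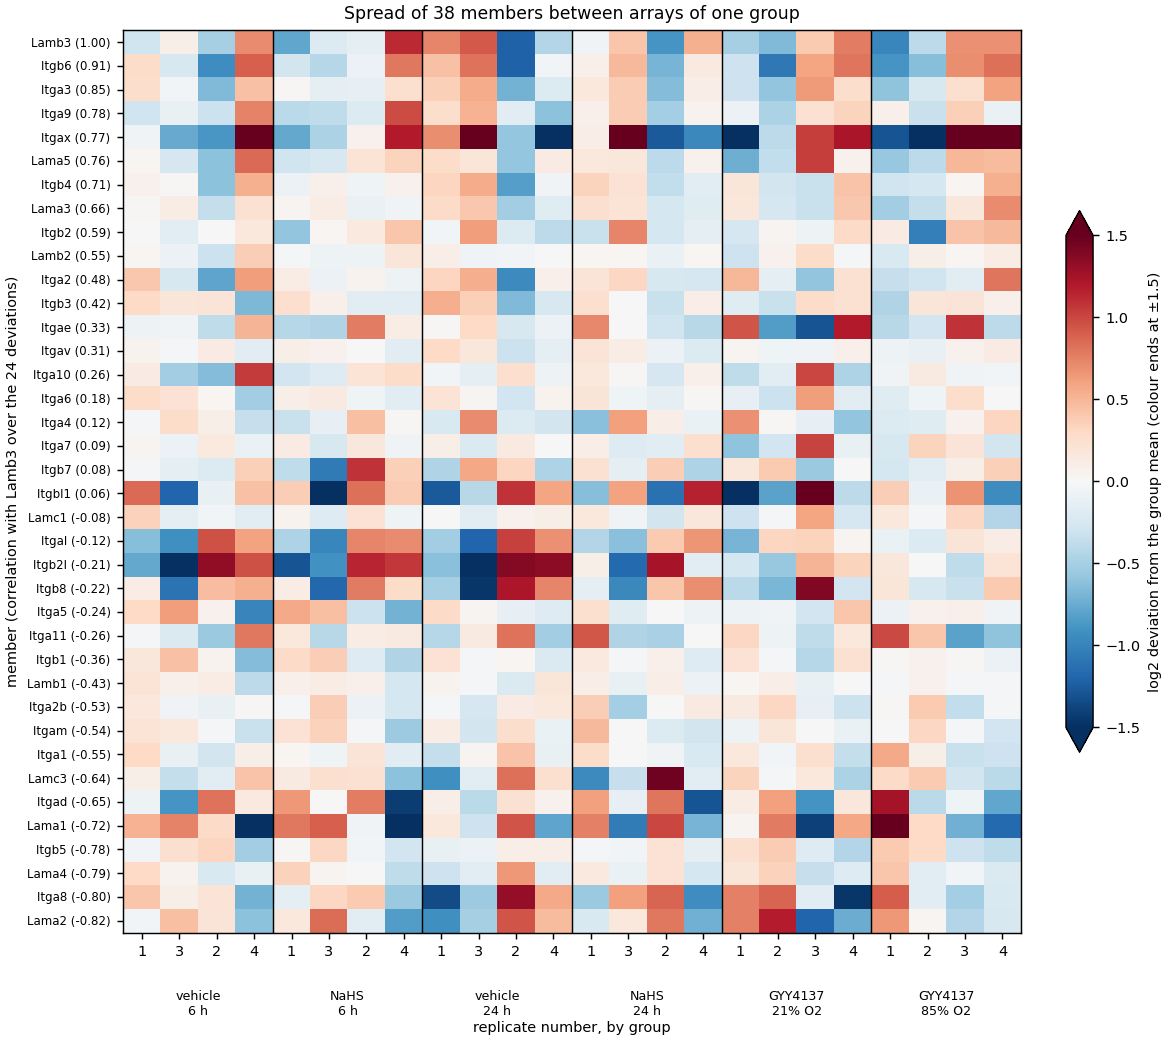
Deviation of each of 38 members from its group mean on each of the 24 arrays (log2, colour), with groups side by side and replicates 1, 3, 2, 4 in the NaHS experiment (2 slides) and 1 to 4 in the other; members are sorted by their correlation with Lamb3, given in brackets. The top rows (Lamb3, Itgb6, Itga3) are blue on vehicle 24 h replicate 2, where Itga8 and Lama2 at the bottom are red.

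**Figure D5:**
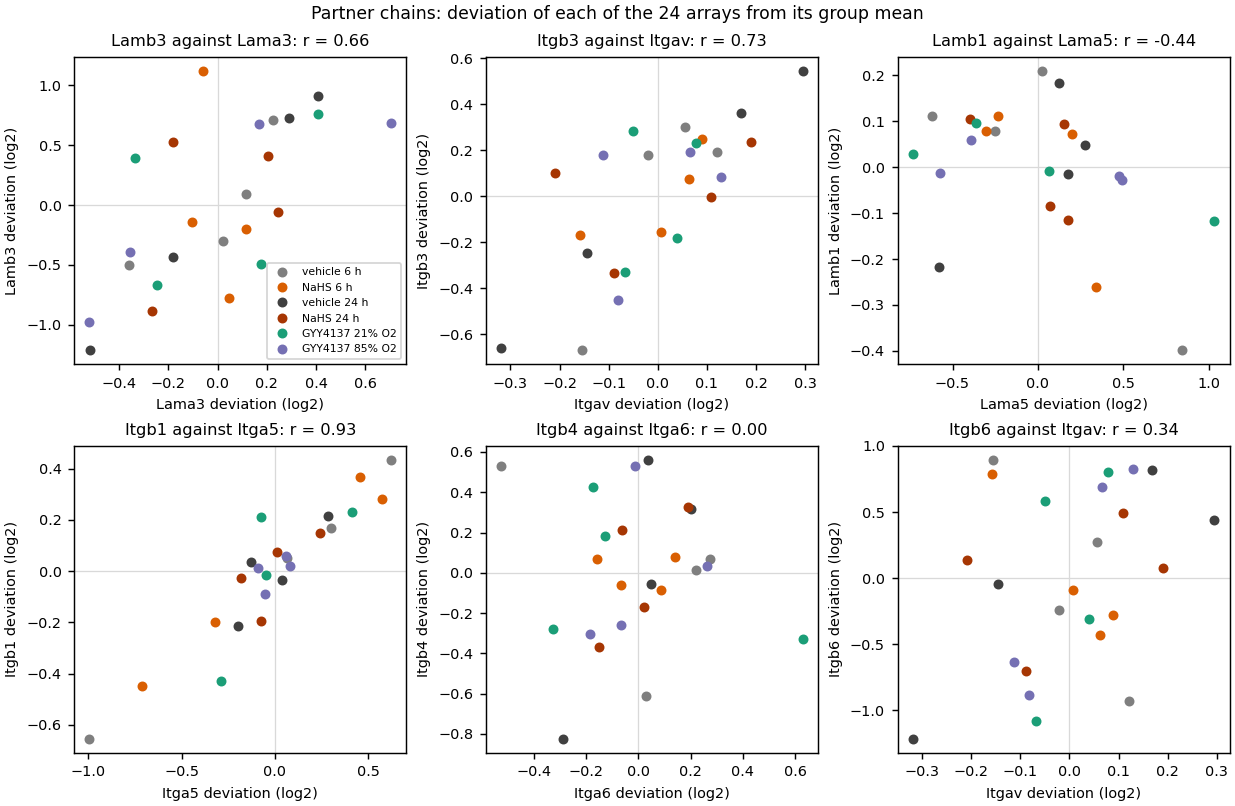
Deviations from the group mean (log2) of 6 pairs of chains that assemble, each point 1 of the 24 arrays, coloured by group. Itga5 with Itgb1 (its brighter probe) lie along a line (r = 0.93), Lama3 with Lamb3 less closely (r = 0.66), and Itga6 with Itgb4 does not (r = 0.00).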

How the data were processed

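RNA from 24 samples was hybridised to one-colour (Cy3) arrays. Per the file headers, the authors' scanner files hold intensity per spot, background-subtracted by Agilent Feature Extraction 10.7.3.1 with no scaling between arrays. The authors also deposited a table of log2 values whose steps are not given in the sources used here. Its median is 5.95 on each of 16 arrays and 7.07 on each of 8, and it served as an alternative. Genome positions of probes are those of the files (mm9). Vehicle samples of the GYY4137 experiment were not analysed here.

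From these, log2 processed signal minus each array's 75th percentile was computed, replicate spots were averaged, and each gene name was read on its brightest probe. Each experiment was fitted separately in limma 3.58.1 (R 4.3.3) with a mean per group, over genes above background on 4 or more arrays (33264 and 34652 genes), with Benjamini-Hochberg adjustment and a threshold of 0.05. The members and all lists were chosen with earlier results of these data known. Counts of members are over all 39, of which 1 is not reported here by itself and is left out of the correlations, plots and outlying arrays. Values array by array were given for members past the threshold, the 3 smallest p-values of each comparison, and the chains of the main epithelial laminins and integrins. Up to 4 pathway genes per list were named by smallest p, and Fbln2, beyond those, was named after its value was seen, as were the marker genes. Alternatives were the background correction, scaling, filter, probe, deposited table, slide, replicate block, samples in the fit and the omission of each array.

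Replicate numbers were not used as pairing in the main fit, and the replicate block was an alternative. Deviations from group means correlated at 0.38 to 0.77 over same-numbered arrays of the NaHS experiment, which also share a slide. Differently numbered arrays of the same slide correlated at 0.11 to 0.68. With slide means removed the same-numbered arrays ran from -0.31 to 0.43. Over the 4 same-numbered pairs of the GYY4137 experiment the correlation was 0.18 to 0.33, and over other pairs -0.27 to 0.29. On simulated data, a log2 change of 1 was recovered for 35% of 100 changed genes in vehicle over time and for 36% with oxygen, and a change of 2 for 76% and 85%. The simulated noise was independent between genes and arrays and held no slide effect, unlike the real arrays, where recovery may differ. The number of arrays limits the precision.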

Additional observations from a re-analysis of the deposited data

Results flagged for a closer look

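In each of the 6 groups of 4 arrays 38 members were examined, 228 groups in all, for an array whose gap to the nearest other array exceeds 0.83 of the group's range. There were 12, and chance gives about 1 in 20 groups. NaHS 6 h replicate 4 was such an array for 3 members: it was the highest for Itga9 (2.39, others 1.0 to 1.21) and the lowest for Lamb1 (6.18, others 6.51 to 6.55) and Lamc3 (-3.10, others -2.35 to -2.25). In the same group replicate 3 was lowest for Itga11 (0.77, others 1.31 to 1.35).

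Vehicle 6 h replicate 4 was lowest for Itgb3 (4.03, others 4.88 to 5.0). At 24 h in vehicle, replicate 2 was highest for Lama4 (2.70, others 1.74 to 1.88) and replicate 3 for Itga4 (-4.11, others -5.09 to -5.03). With NaHS at 24 h, replicate 2 was lowest for Lamb2 (1.91, others at 2.04), a small gap in a narrow group.

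In 85% O2, replicate 1 was lowest for Itgb3 (4.77, others 5.30 to 5.41), replicate 2 highest for Itga10 (-2.36, others -2.55 to -2.54), and replicate 4 highest for Itga2 (1.13, others -0.01 to 0.17). Replicate 3 was highest for Itgae (-4.25, others -5.75 to -5.62), and in that group Itgae was above background on 1 array.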

How the results depend on the processing

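The number of members called for 24 h against 6 h in vehicle, 1, became 0 under median centring, quantile normalization, no filter on dim probes, the mean over probes, the deposited table, slide 1 alone, slide 2 alone and a fit of only the groups compared, and ran from 0 to 1 when single arrays were left out. With NaHS it was 0, and 1 under the filter on all arrays. For the mean over both, 2, it became 0 under median centring, 1 under quantile normalization, 5 under the filter on all arrays, 1 with the deposited table, 6 with the replicate block, 0 on slide 1 alone and 0 on slide 2 alone, and 1 to 3 without single arrays. For oxygen, 3, it was 5 under normexp, 4 under median centring (Itga10 added) and 0 to 5 without single arrays, and the mean over probes gave 3 with Itga6 in place of Itgb1. In these limma fits the smaller slide fits have fewer arrays, and the cause of the other changes was not tested. Apart from the replicate block over time, the share of all genes called in these alternative fits is not given here. The replicate block changed no other call of the vehicle, NaHS or NaHS-time comparisons, and it added Itgb4 for oxygen. Of the alternatives for single genes, 2 turned the direction: Itga2b with NaHS at 24 h under normexp (-0.061) and Itgb1 with oxygen on its other probe (-0.61, a choice made after seeing the data). Another 43 lost the threshold and 580 kept their side and direction. The dim members Itga4, Itgb7, Itgb8 and Itgb2l are limited by their signal over background.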
